A study of Homo sapiens with 6 samples.

Results

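The comparison described here set 786-O cells transfected with ALYREF siRNA8 against cells transfected with a non-targeting control siRNA (NTC). It was taken from the table deposited for siRNA8, with every gene row kept, so that it holds 11679 of the 11679 genes measured in the series. 786-O is an established human clear cell renal cell carcinoma line. The series has 6 libraries in 3 groups of 2: NTC, ALYREF siRNA5 and ALYREF siRNA8, of which 4 enter this comparison. All groups were 1 cell line grown in RPMI with 10% serum, transfected with DharmaFECT 1, moved to fresh medium at 24 h and harvested at 48 h. The NTC was a commercial negative control siRNA from Qiagen, and both ALYREF siRNAs came from the same maker's FlexiTube range. Transfection was transient, and the labels name no selection of transfected cells. Polyadenylated RNA was read as 42-nt paired ends.

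ALYREF is an RNA-binding adaptor of the TREX complex, which joins messenger RNA as it is transcribed, spliced and polyadenylated. It hands the finished transcript to the export receptor NXF1, which carries it through the nuclear pore. ALYREF gathers in nuclear speckles together with splicing factors. Small interfering RNAs guide Argonaute to a fully matched transcript, and can also lower transcripts that match only bases 2 to 8 of the guide, most often through the 3′ untranslated region (UTR).

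The sequences below are shown because a short word in the 3′ UTR marked most of the transcripts that fell furthest with siRNA8. Of 11769 heptamers that occur in the longest annotated 3′ UTR of at least 200 genes, ACTAGAA went with the lowest siRNA8 values and CTAGAAA with the next lowest. They overlap as the octamer ACTAGAAA. That octamer also stands in the coding part of ALYREF itself, in exon 5 of 6 of transcript ENST00000505490.2 (bases 628 to 635 of 1088). Each line gives 1 stretch, 5′ to 3′ on the transcript strand, with the heptamer or octamer in capitals; positions are on GRCh38, read with GENCODE 29, while the authors' own build was hg19.
ALYREF coding exon, chr17:81888383-81888408, minus strand: ggtggcatgACTAGAAAccgtggcgc
COX7C 3′ UTR, chr5:86619916-86619940, plus strand: aacactgttACTAGAAcagtagctg
LSM14B 3′ UTR, chr20:62134772-62134796, plus strand: ggtgggtggACTAGAAgcatttggg
SYPL1 3′ UTR, chr7:106091630-106091654, minus strand: gtgcctttcCTAGAAAgttaagatg
TWF1 3′ UTR, chr12:43795377-43795401, minus strand: gagttaaagCTAGAAAagggttcaa
SEMA3C 3′ UTR, chr7:80744591-80744615, minus strand: ggctgcaaaACTAGAAttgttgcat
COL6A1 3′ UTR, chr21:46004880-46004905, plus strand: ctgtgtcttACTAGAAAcaacgcaaa
THBS1 3′ UTR, chr15:39598233-39598258, plus strand: ctattaaacACTAGAAAggactggct
MSMO1 3′ UTR, chr4:165342213-165342237, plus strand: gttttggatACTAGAAgtattaatc
TACO1 3′ UTR, chr17:63608312-63608337, plus strand: gcgctctgtACTAGAAActgctctta
The COX7C stretch lies in an alternative transcript, and 3 of 3 annotated COX7C transcripts with a 3′ UTR hold a heptamer. So do 3 of 3 for SYPL1 and 1 of 1 for THBS1 and for TACO1. For LSM14B, SEMA3C and COL6A1 only 1 of 2 transcripts does, and for MSMO1 2 of 3. Which transcripts the cells express was not tested. The heptamers were searched on the transcript strand alone. The sources used here do not give the guide sequence of siRNA8, so whether it pairs with these letters was not tested. Of 2545 mature human miRNAs in RefSeq, 0 have a seed (bases 2 to 8) that pairs with either heptamer.

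At an adjusted p under 0.05 per the authors' deposited table, 2458 genes were higher with siRNA8 than with NTC (21.0% of 11679) and 2389 were lower (20.5%), while 6832 were not called. Most shifts were small: among called genes the median size of the log2 change was 0.41. Changes of at least 2-fold were called upward for 183 genes (1.57%) and downward for 320 genes (2.74%). The median log2 change was 0.01 over all genes and 0.03 over 5538 genes whose mean normalized count was 500 or more. ALYREF had the largest fall among genes at or above the median abundance. Below, log2 changes come with the authors' standard error (SE), and "rose" or "fell" is kept for genes past the threshold. The files hold no value per library, so levels are group levels rebuilt from the authors' deposited tables, in normalized counts and with no spread of their own. Because these are bulk samples, fewer cells of a kind and less RNA per cell cannot be told apart.

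**Figure D1:**
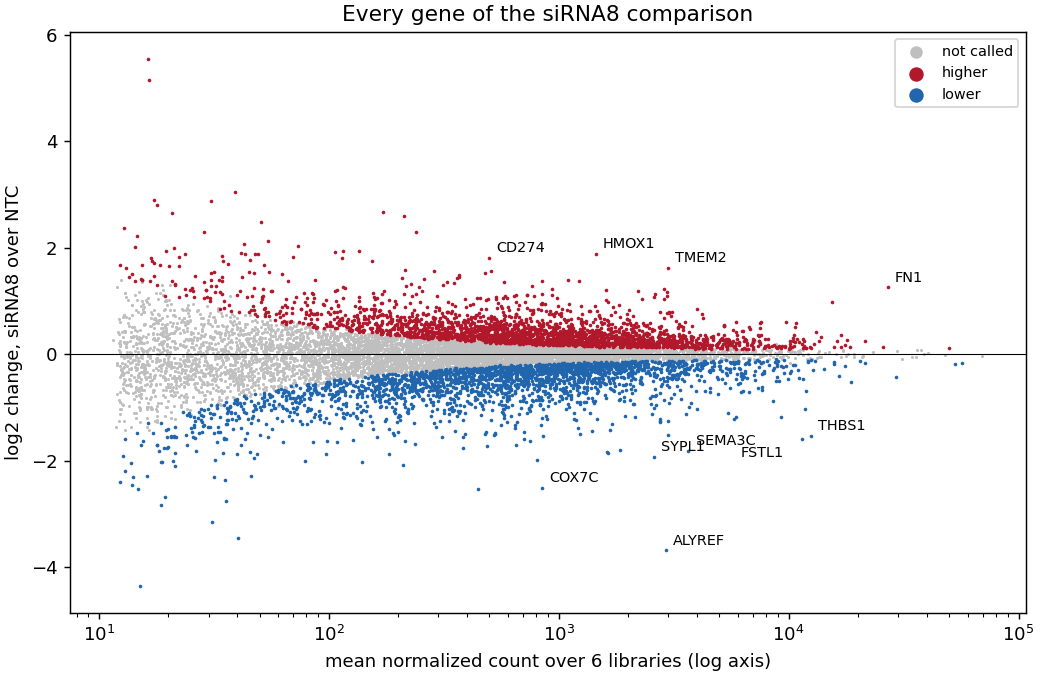
Each point is 1 of the 11679 genes; the x axis is the mean normalized count over the 6 libraries on a log scale and the y axis the log2 change of siRNA8 over NTC, coloured by the authors' adjusted p. ALYREF is lowest among abundant genes at -3.67, HMOX1, CD274, TMEM2 and FN1 stand above the bulk of abundant genes, and values spread widely below a mean of 50.

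ALYREF, the target, was rebuilt from the authors' deposited tables at 7711 with NTC and 604 with siRNA8, which is 7.83% of control (log2 -3.67 (SE 0.085)). Its transcript was the deepest fall among the 15 leading falls. COX7C, a small nuclear-encoded subunit of cytochrome c oxidase, had rebuilt levels of 1185 with NTC and 209 with siRNA8, and the authors' deposited table gives a fall of 2.51 (SE 0.11). LSM14B, an RNA-binding protein of P-bodies, went from 1480.3 to 373 rebuilt normalized counts, a fall of 1.99 (SE 0.092) per the authors' deposited table. SCD, the stearoyl-CoA desaturase that makes monounsaturated fatty acids, had rebuilt levels of 2297 with NTC and 640.1 with siRNA8. Its log2 change per the authors' deposited table was -1.84 (SE 0.23), with the widest SE of the 15. EPDR1, a secreted ependymin-related protein, fell by 1.81 (SE 0.069) per the authors' deposited table, from a rebuilt 2807 to 803. ARL6IP6, an endoplasmic reticulum membrane protein, fell by 1.64 (SE 0.091) per the authors' deposited table.

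Several leading falls encode secreted or membrane proteins. FSTL1, a secreted glycoprotein related to follistatin, was rebuilt at 13686 with NTC and 4533 with siRNA8 and fell by 1.59 (SE 0.068) per the authors' deposited table. THBS1, the matrix glycoprotein thrombospondin 1, was rebuilt at 12041 with NTC and 4171 with siRNA8 and fell by 1.53 (SE 0.068) per the authors' deposited table. Both are abundant transcripts, and each kept well under 50% of its control level. SEMA3C, a secreted semaphorin that guides cell migration, fell from 3741 to 1065 rebuilt normalized counts (log2 -1.81 (SE 0.060) per the authors' deposited table). COL6A1, a chain of type VI collagen, fell by 1.70 (SE 0.11), and SYPL1, a vesicle membrane protein, fell by 1.92 (SE 0.063) per the authors' deposited table. TVP23B, a Golgi membrane protein, fell by 1.73 (SE 0.13) per the authors' deposited table. AIFM2, the ferroptosis suppressor FSP1, had rebuilt levels of 764 with NTC and 253 with siRNA8 (log2 -1.59 (SE 0.11) per the authors' deposited table). TWF1, which binds actin monomers, fell by 1.86 (SE 0.081), and MSMO1, a sterol demethylase of cholesterol synthesis, by 1.53 (SE 0.10) per the authors' deposited table.

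The leading rises included genes of heme breakdown, signalling and adhesion. HMOX1, heme oxygenase 1, which breaks down heme, was rebuilt at 776 with NTC and 2870.1 with siRNA8 and rose 3.70-fold (log2 1.89 (SE 0.14)) per the authors' deposited table. CD274, the checkpoint ligand PD-L1, was rebuilt at 289.7 with NTC and 1016 with siRNA8 and rose 3.51-fold (log2 1.81 (SE 0.10)) per the authors' deposited table. TMEM2, a cell-surface hyaluronidase, went from 1066 to 3281 rebuilt normalized counts, with a log2 rise of 1.62 (SE 0.056) per the authors' deposited table. FN1, fibronectin, was the most abundant of the 15, and its rebuilt level went from 17628 to 42168 (log2 1.26 (SE 0.080) per the authors' deposited table). HMGA2, an AT-hook protein of chromatin, rose by 1.39 (SE 0.13) and CLDN1, a tight junction claudin, by 1.37 (SE 0.077) per the authors' deposited table. G0S2, an inhibitor of the triglyceride lipase ATGL, rose by 1.35 (SE 0.18), and GNPDA1, which converts glucosamine phosphate to fructose phosphate, by 1.37 (SE 0.083) per the authors' deposited table. ADGRG1, an adhesion G protein-coupled receptor, rose by 1.196 (SE 0.059), SLC4A7, a bicarbonate transporter, by 1.23 (SE 0.082) and SHISA2 by 1.29 (SE 0.077) per the authors' deposited table.

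**Figure D2:**
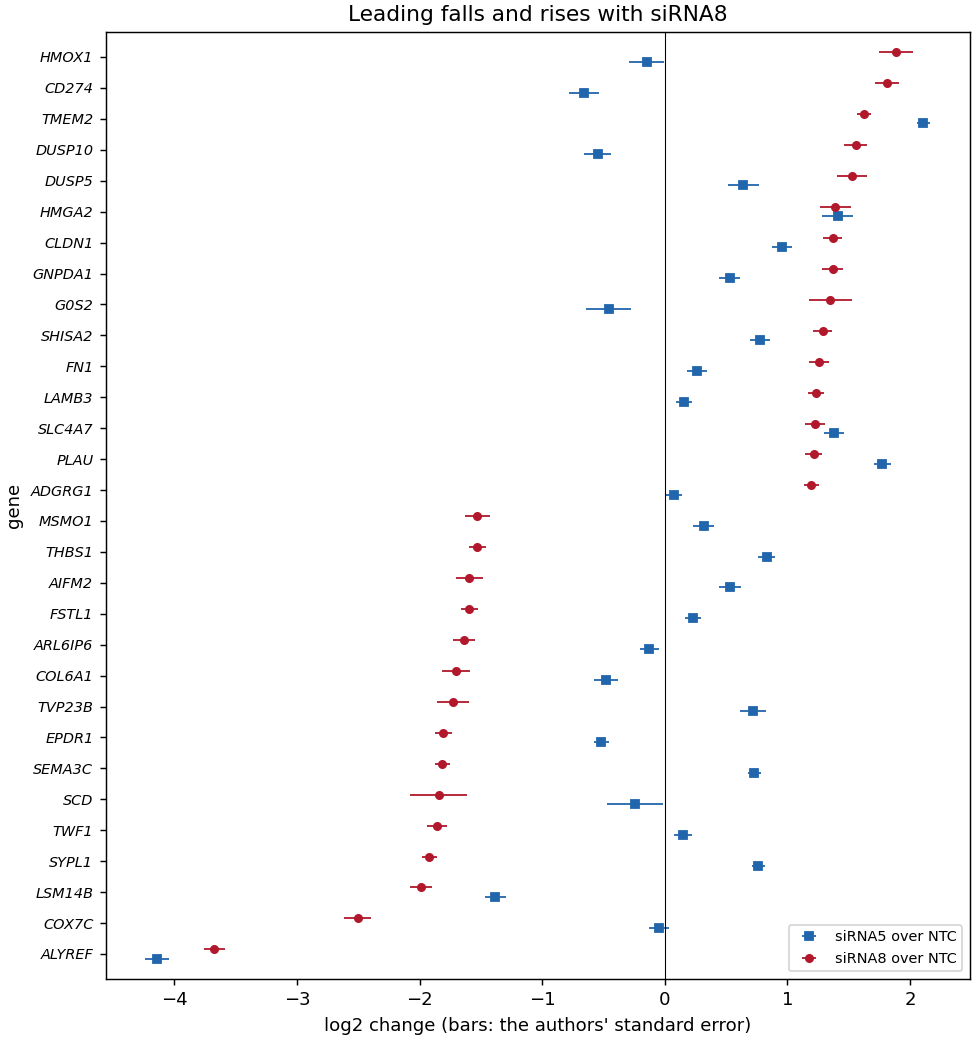
Points are log2 changes over NTC for the 15 leading falls and 15 leading rises with siRNA8 (circles), with the same genes under siRNA5 (squares); bars are the authors' standard error. ALYREF and LSM14B are far below 0 with both siRNAs, while COX7C is at -2.51 with siRNA8 and -0.05 with siRNA5.

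The heptamers were taken from the siRNA8 values themselves, so what follows describes them and tests nothing. Of 5507 genes at means of 500 or more with an annotated 3′ UTR, 675 (12.3%) hold ACTAGAA and 945 (17.2%) hold CTAGAAA. The median siRNA8 log2 change of holders minus that of other genes was -0.14 for ACTAGAA and -0.13 for CTAGAAA, by the authors' deposited tables, while the next heptamer in order reached -0.09. The same genes had siRNA5 medians above those of other genes, by 0.07 and 0.04, per the authors' deposited tables, and siRNA5 took no part in the choice of the heptamers. Either heptamer was present in 1240 genes, whose median siRNA8 log2 change was -0.07 against 0.05 for the 4267 genes with none. Of the holders 39.8% were lower and 22.0% higher, and of the others 20.1% were lower and 31.2% higher. The median was -0.05 for the 914 genes with 1 site, -0.14 for the 213 genes with 2 sites and -0.13 for the 113 genes with 3 or more. Among the 281 genes with the whole octamer it was -0.14, and among the 18 with at least 2 octamers it was -0.38, with 61.1% of these lower. The 742 genes with only the core CTAGAA had a median of 0.04. The 607 genes with a heptamer in the rest of the transcript but not in the 3′ UTR had a median of 0.02.

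Site holders have longer UTRs (median 3178.5 nt against 1160 nt) and a lower GC content (42.9% against 49.1%). Values within classes of UTR length were therefore set side by side. Under 500 nt the median log2 change was -0.18 in the 29 genes with a site and 0.05 in the 1011 without. For UTRs of 500 to 1500 nt, the median log2 change per the authors' deposited table was -0.23 in the 187 genes with a site and 0.02 in the 1551 without, and 58.3% against 22.5% were lower. From 1500 to 3000 nt it was -0.10 in 367 genes against 0.06 in 1069. Above 3000 nt it was -0.02 in 657 genes against 0.08 in 636. The gap was present in each of these classes and narrowest in the longest UTRs. Because the heptamers were chosen from these same values, neither this gap nor the counts below test anything. Holders and other genes were not set side by side within classes of GC content. At this abundance, 70 genes fell at least 2-fold and 49 of them hold a site (70.0%), while 33 rose at least 2-fold and 5 hold one (15.2%). Of the 15 leading falls 13 hold a site in the longest annotated 3′ UTR. ALYREF, whose octamer is in the coding part, and EPDR1 do not. Of the 15 leading rises 1 holds a site, FN1. Of all 11018 genes matched to the annotation, 2442 hold a site (22.2%). Among lower genes 762 of 2294 do (33.2%) and among higher genes 450 of 2421 (18.6%). Most lower genes thus hold none, though their share of holders was above that of all genes.

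**Figure D3:**
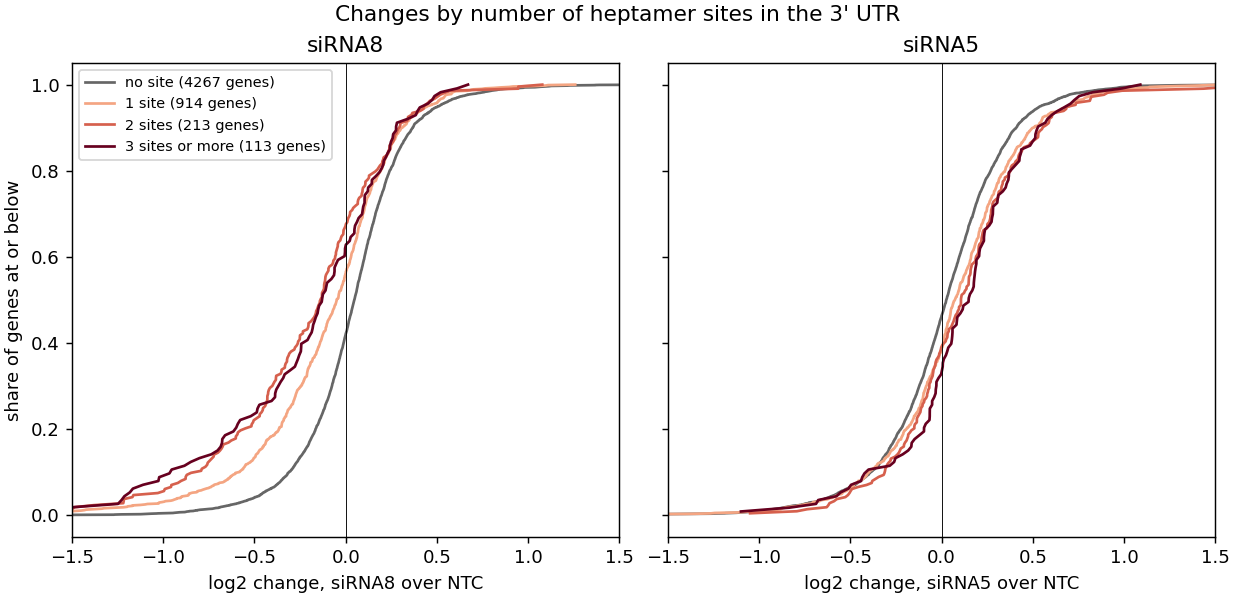
Cumulative share of genes (y axis) at or below each log2 change (x axis) for 5507 genes with a mean of at least 500, split by the number of heptamers in the 3′ UTR; siRNA8 over NTC on the left and siRNA5 over NTC on the right. With siRNA8 the curves of genes with sites lie to the left of the 4267 genes without, and with siRNA5 they lie slightly to the right.

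ALYREF itself belongs to the messenger RNA export factors, few of which fell with it. Of the 21 measured TREX and export factors, 6 rose, ALYREF alone fell and 14 were not called. A heptamer is held by 3 of these factors, of which 2 rose and 0 fell. Among all genes 21.0% were higher and 20.5% lower. DDX39A, an RNA helicase of TREX, rose by 0.49 (SE 0.057), the adaptor CHTOP by 0.35 (SE 0.064) and the THO scaffold THOC2 by 0.26 (SE 0.065) per the authors' deposited table. Of 19 decapping and P-body genes 5 rose and 3 fell. DCP2, the decapping enzyme, was rebuilt at 562 with NTC and 1084 with siRNA8 and rose by 0.95 (SE 0.086) per the authors' deposited table. The 5′ exonuclease XRN1 rose by 0.58 (SE 0.096), and EIF4ENIF1, a P-body protein that binds the cap-binding factor eIF4E, fell by 0.50 (SE 0.089) per the authors' deposited table. The 3′ UTR of DCP2 holds 2 heptamers. Of 18 deadenylation genes 4 rose and 1 fell: CNOT6L, a catalytic subunit, rose by 0.66 (SE 0.11) and CNOT1, the scaffold, fell by 0.31 (SE 0.051) per the authors' deposited table. Of 13 miRNA pathway genes 5 rose and 3 fell. The Argonautes went apart, AGO2 with a rise of 0.50 (SE 0.089) and AGO1 with a fall of 0.62 (SE 0.10) per the authors' deposited table.

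Among feedback inhibitors of MAP kinase signalling, 10 rose and 0 fell of 17, while over all genes 21.0% rose and 20.5% fell. Dual-specificity phosphatases switch off MAP kinases, and Sprouty and SPRED proteins restrain RAS. Of the 13 measured phosphatases 7 rose, 0 fell and 6 were not called, with a median log2 change of 0.41 per the authors' deposited table against 0.01 for all genes. Under siRNA5, 5 of these phosphatases rose and 6 fell. DUSP6, which acts on ERK, was rebuilt at 61.0 with NTC and 236 with siRNA8 and rose by 1.95 (SE 0.18) per the authors' deposited table. DUSP5, a nuclear ERK phosphatase, was rebuilt at 265 with NTC and 763 with siRNA8, a rise of 1.53 (SE 0.12) per the authors' deposited table. DUSP10, which acts on JNK and p38, was rebuilt at 331 with NTC and 973 with siRNA8, a rise of 1.56 (SE 0.095) per the authors' deposited table. Of 4 Sprouty and SPRED genes 3 rose: SPRY2 by 0.97 (SE 0.15), SPRED2 by 0.58 (SE 0.10) and SPRED1 by 0.42 (SE 0.10) per the authors' deposited table. Of the 4, 3 also rose with siRNA5, and the difference between the siRNAs passed for 0. A heptamer is held by SPRED1 and SPRED2, which rose. SPRY4 had a log2 change of 0.83 (SE 0.44) at a mean of 24.7 and was not called per the authors' deposited table.

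Targets of the same pathway rose more often than they fell, and its kinases went both ways. Of 15 ERK-induced genes 8 rose and 1 fell per the authors' deposited table, the same counts as with siRNA5. A heptamer is held by 6 of the 15, of which 4 rose and 0 fell. The growth factor HBEGF and the transcription factor ETV5 each rose by 0.84 (SE 0.088 and 0.11), and PHLDA1 by 0.81 (SE 0.079) per the authors' deposited table. TGFA, an EGF receptor ligand, rose by 0.54 (SE 0.058) and the ligand FGF5 by 0.89 (SE 0.10), while FGF2 fell by 0.86 (SE 0.084) per the authors' deposited table. Of 19 genes of the kinase cascades 7 rose and 3 fell, beside 21.0% higher and 20.5% lower over all genes. The RAS GTPase HRAS fell by 0.25 (SE 0.088) and the kinase ARAF by 0.26 (SE 0.098) per the authors' deposited table. The JNK kinase MAPK8 rose by 0.43 (SE 0.064) and its activator MAP2K4 by 0.44 (SE 0.089) per the authors' deposited table. Of 19 receptor tyrosine kinases 3 rose and 6 fell, among them AXL, with a fall of 0.40 (SE 0.040), and EPHA2, with a rise of 0.32 (SE 0.050) per the authors' deposited table. Among the TGF-beta genes, of which 8 rose and 5 fell of 28, the ligand TGFB1 fell by 0.87 (SE 0.073) and the receptor TGFBR2 rose by 0.92 (SE 0.059) per the authors' deposited table.

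Surface ligands read by immune cells moved in opposite directions. Of 11 measured checkpoint and co-stimulatory ligands 4 rose and 4 fell. Beside CD274, its relative PDCD1LG2 (PD-L2) rose by 0.62 (SE 0.21) and CD276 (B7-H3) by 0.37 (SE 0.061) per the authors' deposited table. TNFSF9, the ligand of the T cell co-stimulator 4-1BB, was rebuilt at 1199 with NTC and 479 with siRNA8 and fell by 1.32 (SE 0.095) per the authors' deposited table. CD70, the ligand of CD27, fell by 0.82 (SE 0.069) and ICOSLG by 0.52 (SE 0.16) per the authors' deposited table. Of 10 MHC class I pathway genes 3 rose and 0 fell, and the light chain B2M rose by 0.14 (SE 0.043) per the authors' deposited table. Interferon genes did not lean to 1 side: 4 of 24 effectors rose and 4 fell, and 3 of 20 sensors and regulators rose and 4 fell. The shares over all genes were 21.0% higher and 20.5% lower. The ubiquitin-like ISG15 fell by 0.99 (SE 0.13) and the receptor chain IFNAR1 by 0.55 (SE 0.082) per the authors' deposited table. Of 14 cytokines and chemokines 3 rose and 3 fell. CSF1, the macrophage growth factor, was rebuilt at 3042 with NTC and 1395 with siRNA8 and fell by 1.13 (SE 0.064), and LIF, a cytokine of the IL-6 family, rose by 0.80 (SE 0.049) per the authors' deposited table. The adhesion receptor VCAM1 fell by 0.64 (SE 0.094) and the interleukin-1 receptor chain IL1RAP rose by 1.08 (SE 0.12) per the authors' deposited table. A heptamer is held by TNFSF9, CSF1 and IFNAR1, which fell, and by PDCD1LG2 and IL1RAP, which rose.

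HMOX1 is a classic target of the transcription factor NRF2, whose other targets went both ways. Of 14 measured NADPH and detoxification genes 0 rose and 9 fell, with a median log2 change of -0.23 per the authors' deposited table. For comparison, 21.0% of all genes rose and 20.5% fell. The quinone reductase NQO1, also an NRF2 target, fell by 0.19 (SE 0.069), OSGIN1 by 0.64 (SE 0.19) and the aldose reductase AKR1B1 by 0.32 (SE 0.051) per the authors' deposited table. NFE2L2, which encodes NRF2, fell by 0.30 (SE 0.060), and BACH1, a repressor of HMOX1, rose by 0.45 (SE 0.10) per the authors' deposited table. Of 14 glutathione and thioredoxin genes 3 rose and 3 fell. The rises were small: MGST1, a microsomal glutathione transferase, rose by 0.28 (SE 0.087), thioredoxin, TXN, by 0.14 (SE 0.051) and its reductase TXNRD1, an NRF2 target, by 0.13 (SE 0.044) per the authors' deposited table. GCLM, a subunit of the enzyme that starts glutathione synthesis, fell by 0.74 (SE 0.064) and the cystine transporter SLC7A11 by 0.70 (SE 0.11) per the authors' deposited table. GCLC, the other subunit, had a log2 change of -0.13 (SE 0.10) and was not called per the authors' deposited table. Of these 14 genes 4 hold a heptamer site, and 2 of the 4 fell, GCLM with 2 sites and SLC7A11 with 4. With siRNA5 the log2 change was -0.02 for GCLM and 0.71 for SLC7A11 per the authors' deposited table. Of 14 heme and iron genes 3 rose and 2 fell. The ferritin heavy chain FTH1 rose by 0.29 (SE 0.055) and the transferrin receptor TFRC by 0.42 (SE 0.055), while NCOA4, the receptor for ferritin breakdown, fell by 0.40 (SE 0.047) per the authors' deposited table.

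COX7C was the only member of its complex to fall. Of 12 measured complex IV subunits 4 rose, and the next largest negative values did not pass the threshold per the authors' deposited table. COX7A2 rose by 0.23 (SE 0.071) and COX7B by 0.18 (SE 0.077), and COX6C had a log2 change of -0.02 (SE 0.11) per the authors' deposited table. Assembly factors of the complex were split, 6 higher and 6 lower of 25. TACO1, which activates translation of the mitochondrial COX1 message, was rebuilt at 879 with NTC and 337 with siRNA8 and fell by 1.38 (SE 0.10), and COX20, a chaperone of COX2, fell by 1.00 (SE 0.087) per the authors' deposited table. TACO1 holds 2 sites and COX20 holds 0. Of 38 complex I genes 8 rose and 2 fell, and of 16 ATP synthase genes 4 rose and 2 fell. Over all genes 21.0% rose and 20.5% fell.

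Among lipid genes more fell than rose. Of 51 measured sterol and fatty acid genes 5 rose and 24 fell, with a median log2 change of -0.13 per the authors' deposited table. For comparison, 21.0% of all genes were higher and 20.5% lower. The 12 of them with a heptamer account for 11 of the falls. In the mevalonate steps HMGCS1, which makes HMG-CoA, fell by 0.29 (SE 0.076) and IDI1 by 0.39 (SE 0.094), and GGPS1, which makes geranylgeranyl diphosphate, rose by 0.54 (SE 0.10) per the authors' deposited table. In the steps from squalene to cholesterol 5 of 11 fell and 0 rose. LSS, the lanosterol synthase, fell by 0.92 (SE 0.11) and DHCR7, the last enzyme of the route, by 0.52 (SE 0.10) per the authors' deposited table, and neither holds a site. Among control and uptake genes 8 of 14 fell. ABCA1, which exports cholesterol, was rebuilt at 6615 with NTC and 3063 with siRNA8 and fell by 1.11 (SE 0.081), and the sterol carrier STARD4 fell by 0.76 (SE 0.15) per the authors' deposited table. Of the 17 fatty acid enzymes 8 fell, among them SCD and, by 0.44 (SE 0.078), the elongase ELOVL6 per the authors' deposited table.

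More DNA replication and mitosis genes fell than rose, most by small steps. Of 103 measured replication genes 44 fell and 15 rose, with a median of -0.10 per the authors' deposited table. Among all genes 20.5% were lower and 21.0% higher. A heptamer is held by 23 of them, of which 11 fell, among them GINS2, RFC1, RRM2 and CDK6. In the chromatin assembly group the calls were all downward, with 9 of 11 lower and 0 higher. The histone chaperones ASF1A and ASF1B fell by 0.73 (SE 0.10) and 0.54 (SE 0.062), and the remodeller HELLS by 0.63 (SE 0.088) per the authors' deposited table. GINS2, a subunit of the GINS complex at the fork, fell by 0.99 (SE 0.078), the origin factor CDC6 by 0.47 (SE 0.074) and the clamp loader subunit RFC1 by 0.93 (SE 0.059) per the authors' deposited table. The cell cycle kinase CDK6, whose UTR holds 3 heptamers, was rebuilt at 6480.4 with NTC and 2853 with siRNA8 and fell by 1.18 (SE 0.057) per the authors' deposited table. RBL2, the RB family member p130, fell by 0.91 (SE 0.081) and the CDK inhibitor CDKN2D by 1.09 (SE 0.17) per the authors' deposited table. The ribonucleotide reductase subunit RRM2 fell by 0.55 (SE 0.044), while ATIC, a purine synthesis enzyme, rose by 0.61 (SE 0.041) per the authors' deposited table.

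Of 81 measured mitosis genes 41 fell and 16 rose, with a median of -0.17 per the authors' deposited table. Only 9 of them hold a site. For all genes the shares were 20.5% lower and 21.0% higher. In the kinetochore and centromere group 12 of 19 fell, CENPI by 0.75 (SE 0.093) and CENPM by 0.68 (SE 0.11) per the authors' deposited table. In the spindle and cytokinesis group 12 of 22 fell, among them TPX2, an activator of Aurora A, by 0.42 (SE 0.035) per the authors' deposited table. ESPL1, the separase that cuts cohesin, fell by 0.93 (SE 0.089) and the CDK1-inhibiting kinase PKMYT1 by 0.70 (SE 0.074), while WEE1, another inhibitor of CDK1, rose by 0.76 (SE 0.073) per the authors' deposited table. Of 8 replacement and linker histones 6 fell and 0 rose. H1FX, a linker histone, fell by 1.52 (SE 0.12) and H2AFX, the histone of DNA damage foci, by 1.42 (SE 0.068) per the authors' deposited table. With siRNA5 H1FX fell by 2.00 and H2AFX by 1.85, and of the 8 genes 5 fell and 3 rose. The p53 target genes were split: 10 of 31 rose and 7 fell. GADD45A, a growth arrest gene, rose by 0.68 (SE 0.071) and the sestrin SESN1 by 0.81 (SE 0.17), while cyclin G1, CCNG1, fell by 0.65 (SE 0.075) per the authors' deposited table.

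HIF-2 drives this tumour type because VHL, which degrades it, is lost, and its targets went both ways. Of 21 measured targets 10 rose and 9 fell, beside 21.0% higher and 20.5% lower over all genes. ANGPTL4, an inhibitor of lipoprotein lipase, was rebuilt at 95.9 with NTC and 472 with siRNA8 and rose by 2.30 (SE 0.37) per the authors' deposited table. PLIN2, the lipid droplet coat protein, rose by 0.42 (SE 0.067), while IGFBP3 fell by 0.88 (SE 0.12) and PDGFB by 0.53 (SE 0.11) per the authors' deposited table. EPAS1, which encodes HIF-2 alpha, rose by 0.53 (SE 0.068) per the authors' deposited table. Among 22 glycolysis genes, 5 higher and 6 lower, hexokinase 2, HK2, rose by 0.78 (SE 0.073) and the enolase ENO2 fell by 1.03 (SE 0.078) per the authors' deposited table.

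More adhesion genes rose than fell. Of 13 measured integrin subunits 8 rose, 0 fell and 5 were not called, with a median of 0.22 per the authors' deposited table. Over all genes 21.0% were higher and 20.5% lower. A heptamer is held by 3 of the 13 integrins, of which 2 rose and 0 fell. ITGA2, the collagen-binding alpha 2 subunit, was rebuilt at 172 with NTC and 512 with siRNA8 and rose by 1.57 (SE 0.15) per the authors' deposited table. ITGB8, which helps to release active TGF-beta, rose by 0.98 (SE 0.068) and ITGB5 by 0.76 (SE 0.046), and ITGAV, the partner of both, had a log2 change of -0.09 (SE 0.055) without a call per the authors' deposited table. Of 29 matrix genes 10 rose and 6 fell. LAMB3, a chain of laminin 332, was rebuilt at 1938 with NTC and 4549.9 with siRNA8 and rose by 1.23 (SE 0.065), and CTGF, a YAP target, rose by 1.46 (SE 0.11) per the authors' deposited table. VCAN, the proteoglycan versican, fell by 1.02 (SE 0.081) per the authors' deposited table, beside COL6A1 and THBS1. Each of VCAN, COL6A1 and THBS1 holds a site. In all 9 matrix genes hold one, of which 3 fell and 2 rose. In the plasminogen system 5 of 8 rose and 1 fell. SERPINB2, 1 of the 5, was near the floor, at a mean of 16.5 and an SE of 0.93 per the authors' deposited table. The urokinase PLAU was rebuilt at 718 with NTC and 1666 with siRNA8, and its receptor PLAUR rose by 0.63 (SE 0.11) per the authors' deposited table.

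Rises also outnumbered falls among the metalloproteases and, at 34 against 13 of 85, among the actin filament genes. Of 10 tight junction genes 3 rose and 2 fell. The shares over all genes were 21.0% higher and 20.5% lower. Of 29 metalloproteases and their inhibitors 12 rose and 4 fell, with ADAMTS9 up by 1.07 (SE 0.064), ADAM19 up by 1.03 (SE 0.062) and MMP2 down by 0.32 (SE 0.091) per the authors' deposited table. A heptamer is held by 9 of the 29, of which 6 rose and 0 fell. The claudins went apart, CLDN1 higher and CLDN4 lower by 1.09 (SE 0.074) per the authors' deposited table. The simple-epithelium keratins KRT18 and KRT8 rose by 0.68 (SE 0.061) and 0.33 (SE 0.047) per the authors' deposited table. TWF1 was the only fall among 17 monomer-binding and capping genes, of which 7 rose. Of 25 crosslinker and myosin genes 10 rose and 4 fell. LCP1, the bundling protein L-plastin, was rebuilt at 2358 with NTC and 5304 with siRNA8 and rose by 1.17 (SE 0.053) per the authors' deposited table. The ERM proteins that tie actin to the membrane went apart: moesin, MSN, rose by 0.51 (SE 0.043) and ezrin, EZR, fell by 0.38 (SE 0.040) per the authors' deposited table. CDC42, the GTPase of filopodia, was rebuilt at 3779 with NTC and 2119 with siRNA8 and fell by 0.83 (SE 0.050) per the authors' deposited table.

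**Figure D4:**
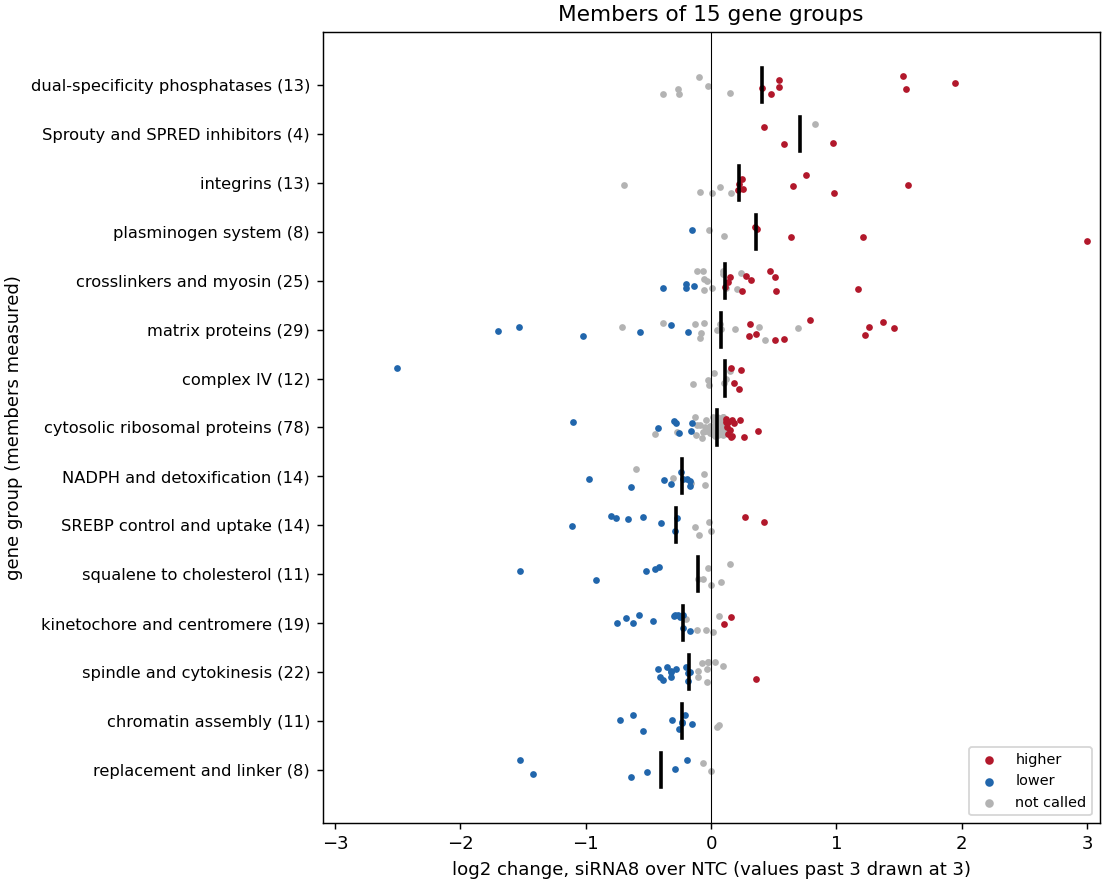
Each point is 1 measured gene of the named group, placed by its log2 change of siRNA8 over NTC and coloured by the authors' call; black bars are group medians and SERPINB2, at 5.16, is drawn at 3. SERPINB2 had a mean of only 16.5 and an SE of 0.93. Phosphatases and integrins hold no called fall, chromatin assembly genes and histones hold no called rise, and COX7C stands alone at the low end of complex IV.

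Genes of membrane traffic moved both ways. Of 21 coat genes 8 rose and 6 fell, beside 21.0% higher and 20.5% lower over all genes. SAR1A, the GTPase that starts COPII coats and holds 3 heptamers, was rebuilt at 3237 with NTC and 1363 with siRNA8 and fell by 1.25 (SE 0.054) per the authors' deposited table. SEC23A, a COPII coat subunit, fell by 0.67 (SE 0.063) and KDELR2, which retrieves chaperones to the endoplasmic reticulum, by 1.22 (SE 0.048) per the authors' deposited table. MCFD2, a cargo receptor cofactor for clotting factors, rose by 0.83 (SE 0.060) per the authors' deposited table. Of 45 Rab genes 12 rose and 4 fell, RAB27A by 0.71 (SE 0.11) per the authors' deposited table. Of 40 lysosomal genes 13 rose and 5 fell; the cathepsin CTSC rose by 0.59 (SE 0.064) and MITF, a regulator of lysosomal genes, fell by 0.86 (SE 0.095) per the authors' deposited table.

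Of 78 cytosolic ribosomal protein genes 13 rose (16.7%) and 7 fell (9.0%). Of 76 mitochondrial ones 19 rose (25%) and 13 fell (17.1%). Among all genes 21.0% rose and 20.5% fell. MRPL50 rose by 0.86 (SE 0.087) and MRPL12 fell by 0.45 (SE 0.078) per the authors' deposited table. Of 44 proteasome genes 4 rose and 12 fell, with a median of -0.10 per the authors' deposited table, and the lid subunit PSMD11 fell by 0.49 (SE 0.056). In the stress groups 9 of 21 endoplasmic reticulum genes rose and 4 fell, and 7 of 19 heat shock genes rose and 2 fell. The chaperone HSPA5 (BiP) fell by 0.21 (SE 0.035), and ATF6, a sensor of unfolded proteins with 2 heptamers, was rebuilt at 1369 with NTC and 588 with siRNA8 and fell by 1.22 (SE 0.075) per the authors' deposited table.

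The difference between the siRNAs was tested as siRNA8 minus siRNA5. Both changes use the same 2 NTC libraries, so each is given with its own value. At an adjusted p under 0.05 the log2 change was more positive with siRNA8 for 1731 genes (14.8%) and more negative for 2008 (17.2%). The strongest negative difference was in SYPL1, rebuilt from the authors' deposited tables at 2634 with NTC, 696 with siRNA8 and 4472 with siRNA5, a difference of -2.68 (SE 0.081, adjusted p = 2.15e-235). SEMA3C was rebuilt from the same tables at 3741 with NTC, 1065 with siRNA8 and 6199.9 with siRNA5, a difference of -2.54 (SE 0.080, adjusted p = 3.13e-218). Both were above NTC with siRNA5 and below it with siRNA8. COX7C reached 1147 with siRNA5, close to its NTC level of 1185, and its difference by the authors' deposited tables was -2.46 (SE 0.14, adjusted p = 1.47e-70). Of the 10 leading negative differences 10 hold a heptamer, and of the 10 leading positive ones 1 does, against 22.2% of all matched genes. The heptamers were chosen from the siRNA8 values that enter these differences, so the counts test nothing. On the positive side CD274 was rebuilt from the authors' deposited tables at 289.7 with NTC, 1016 with siRNA8 and 184 with siRNA5, a difference of 2.47 (SE 0.16, adjusted p = 7.13e-53). LCP1 was rebuilt at 2358 with NTC, 5304 with siRNA8 and 1221 with siRNA5, a difference of 2.12 (SE 0.079, adjusted p = 1.77e-155) by the authors' deposited tables. In HMOX1 siRNA5 gave a log2 change of -0.15 (SE 0.14), not called per the authors' deposited table, and the difference was 2.03 (SE 0.20, adjusted p = 1.97e-22).

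In some groups the tested differences lay mostly on 1 side. In the kinetochore group the authors' deposited siRNA5 table has 11 higher and 5 lower genes, and the difference was negative for 11 and positive for 0 of 19. In the spindle group siRNA5 had 14 higher and 1 lower, and the difference was negative for 17 and positive for 1 of 22. For the proteasome siRNA5 had 17 higher and 1 lower, and the difference was negative for 23 and positive for 2 of 44. The opposite sign was seen in actin crosslinkers, where siRNA5 had 5 higher and 14 lower, and the difference was positive for 15 and negative for 1 of 25. Matrix genes had 5 higher and 14 lower with siRNA5, and the difference was positive for 15 and negative for 3 of 29. Some genes rose with both siRNAs and more with siRNA5. Their siRNA5 log2 changes were 2.11 for TMEM2, 1.77 for PLAU, 2.17 for IL1RAP and 1.59 for DCP2 per the authors' deposited table. HMGA2 had log2 changes of 1.39 with siRNA8 and 1.41 with siRNA5 per the authors' deposited tables, a difference of -0.02 (SE 0.18, adjusted p = 0.951) that did not pass, which does not show that both siRNAs act alike on it.

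Gene structure went with the siRNA8 change as well. ALYREF is loaded during splicing, but whether its loss has a part in this was not tested. At means of 100 or more, the 141 genes with 1 exon had a median log2 change of -0.12 per the authors' deposited table, with 50 lower and 16 higher. The 2716 genes with 11 to 20 exons had a median of 0.04, with 541 lower and 722 higher. By GC content of the transcript, the 1236 genes above 60% had a median of -0.10, with 395 lower (32.0%) and 176 higher (14.2%). The 1629 genes at or under 40% had a median of 0.07, with 310 lower (19.0%) and 460 higher (28.2%). With site holders left out these medians were -0.12, 0.06, -0.09 and 0.10 in the same order. The siRNA5 medians per the authors' deposited table were -0.28 and 0.05 for the exon classes and -0.13 and 0.18 for the GC classes. Exon number, GC content and UTR length move together across genes, and their separate parts were not tested.

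**Figure D5:**
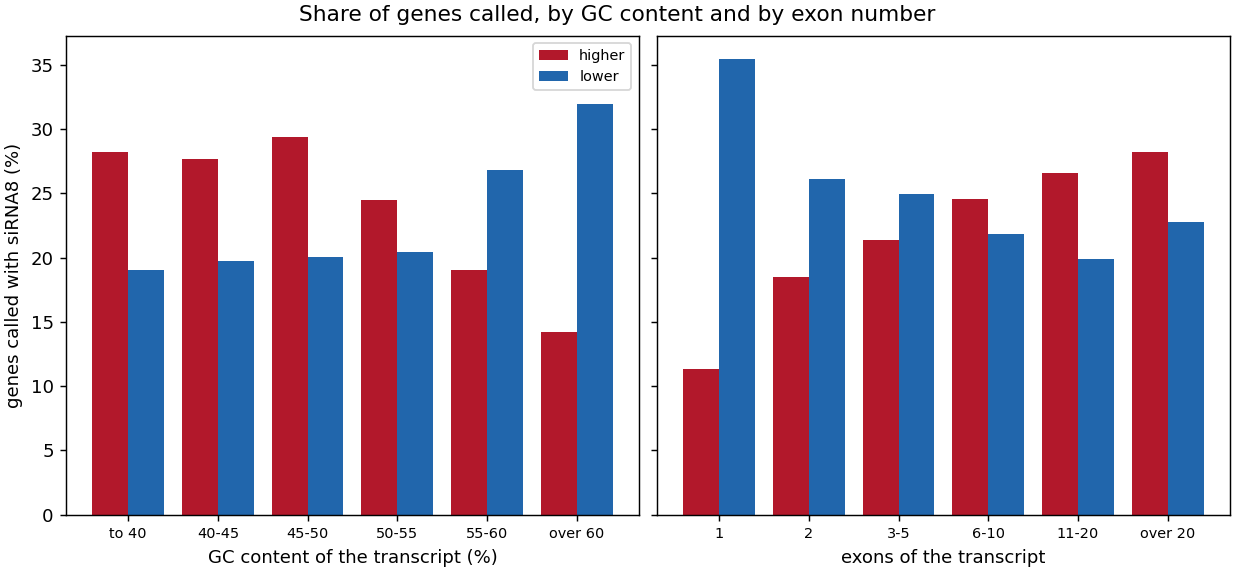
Bars give the percentage of genes called higher or lower with siRNA8 in each class of transcript GC content (left, percent) and exon number (right), for genes with a mean of at least 100. In GC classes up to 55% more genes are higher than lower; from 55 to 60% the order is turned, with 19.0% higher and 26.8% lower, and above 60% it is 14.2% against 32.0%.

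As to the series as a whole, the gene means summed to 12632521 normalized counts while the sources used here do not give the depth of single libraries. The siRNA8 standard error had a median of 0.43 over 1423 genes at means below 50 and of 0.072 over 5538 genes at means of 500 or more per the authors' deposited table, so small changes were detectable only in abundant genes. ACTB and GAPDH had log2 changes of -0.02 (SE 0.046) and -0.05 (SE 0.049) and were not called per the authors' deposited table. Of 17 renal lineage markers 9 were in the table, with the renal transcription factor PAX8 at a mean of 2354; 4 rose and 1 fell. Of 15 immune markers 3 were in the table and 0 were called, and of 14 endothelial and fibroblast markers 3 were, all with a mean under 50, of which 1 rose and 1 fell. Reads were directional, but the sources used here do not say whether counting used strand, so overlapping antisense genes and close copies such as TVP23B and TVP23C are uncertain. No label says whether duplicates were separate cultures, and the p-values then rest on a spread between libraries that could be technical alone.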

How the data were processed

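RNA-seq of 6 libraries (NTC, ALYREF siRNA5 and siRNA8, 2 each) was used as 2 result tables. Per the submitters' processing notes the tools were STAR, Picard, HTSeq and DESeq2 with genome build hg19, versions not given. Per the file headers each row has a mean signal, here a mean normalized count over all libraries, identical in both deposited tables. The fold changes and their standard errors are log2 values per the file headers, and the deposited Wald score is their ratio. The authors' p-values match a 2-sided normal reading of that score, and the adjusted ones were recomputed as Benjamini-Hochberg values over 11681 rows. The sources used here do not say whether fold changes were shrunk. The planned fit to counts gave way to the authors' DESeq2 results, since no value per library is in the files. The 2 HTSeq counter rows (7.85% of the summed means) were left out. The lowest gene mean was 11.6, and 1442 genes of the lists had a row.

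Group levels were rebuilt from the mean and both fold changes; as a check, differences in squared standard errors predicted from them had a slope of 1.15 and Pearson's r of 0.946, across genes that are not independent, against the deposited ones. For siRNA8 minus siRNA5, the gap between both log2 changes was divided by the root of their summed squared SEs and read on the normal curve (two-sided, Benjamini-Hochberg adjusted); the shared controls make this SE an upper bound. Symbols were matched to GENCODE 29 (11018 of 11679, 82 through synonyms in RefSeq); the transcript with the longest 3′ UTR was used. Python 3.11.15, numpy 2.4.6, pandas 2.3.3 and scipy 1.17.1 were used, and the steps were tested on simulated data. The members and the gene lists were chosen with earlier results of these data known. The naming rule took ALYREF, the 15 largest rises and falls and 10 largest differences each way among called genes at or above the median mean, up to 3 rises and 3 falls per gene group at a mean of at least 100, and 12 fixed names, 388 genes in all. NQO1, GCLC, SPRY4, COX6C, ITGAV, PAX8 and SERPINB2 were added after their values were seen. Some items are not reported here. Alternatives are listed at the end.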

Additional observations from a re-analysis of the deposited data

Results flagged for a closer look

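The change over NTC differed between the siRNAs by the test of the difference for the following genes, which have the 10 most negative and 10 most positive siRNA8 minus siRNA5 differences under the naming rule. By the authors' deposited tables the negative log2 differences were -2.68 for SYPL1, -2.54 for SEMA3C, -2.46 for COX7C, -2.45 for TVP23B, -2.36 for THBS1, -2.13 for AIFM2, -2.01 for TWF1, -1.95 for NXPE3, -1.84 for MSMO1 and -1.82 for FSTL1. Of these 10 genes, siRNA5 gave a rise for SYPL1 (0.76), SEMA3C (0.73), TVP23B (0.72), THBS1 (0.83), AIFM2 (0.53), NXPE3 (0.46), MSMO1 (0.32) and FSTL1 (0.23), and no call for COX7C and TWF1, per the authors' deposited table. The positive log2 differences were 2.47 for CD274, 2.21 for SERINC2, 2.12 for LCP1, 2.10 for DUSP10, 2.03 for HMOX1, 1.81 for G0S2, 1.64 for GLIPR1, 1.57 for AKAP12, 1.56 for ANKRD13A and 1.499 for FOXD1 by the authors' deposited tables. For SERINC2, a membrane protein of the serine incorporator family, and ANKRD13A, an ankyrin repeat protein, most of the difference came from siRNA5, with falls of 1.83 and 1.26 against rises of 0.38 and 0.30 with siRNA8, by the authors' deposited tables. The adjusted p-values of these 20 differences ran from 2.15e-235 (SYPL1) to 5.11e-11 (G0S2).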

How the results depend on the processing

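Of 2458 higher and 2389 lower genes, a test against a 1.2-fold change left 536 and 744, and standard errors 1.5 times larger left 1283 and 1316. Of the members of the gene lists, 375 higher and 333 lower, the same settings left 82 and 94, and 219 and 198. The first of them kept 165 of the 386 called genes named by the rule, so that small changes of single group members rest on the threshold. An adjusted p under 0.01, adjustment over genes at means of 100 or more, adjustment without the counter rows and centring on abundant genes kept every one of these counts within 1.5 times. The same held with genes whose 3′ UTR holds a heptamer left out (2008 higher, 1627 lower), a setting chosen after the data were seen. Removing the shared control variance raised the positive siRNA8 minus siRNA5 differences from 1731 to 2679 and the negative ones from 2008 to 2883. With the shortest annotated UTR, or with genes of a mean of at least 100, both heptamers stayed the 2 lowest. No paired analysis was possible because the files hold no value per library, and leaving out single replicates could not be run for the same reason. Depth limits the 1423 genes with a mean under 50, whose median SE was 0.43.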

Other observations

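Outside the gene lists, several further genes with large siRNA8 changes stood out; they were chosen after their values were seen. Both enzymes that start polyamine breakdown rose, the acetyltransferase SAT1 by 1.06 (SE 0.10) and the spermine oxidase SMOX by 1.10 (SE 0.089) per the authors' deposited table. NT5E, the ectoenzyme CD73 that makes adenosine from AMP, was rebuilt at 1564 with NTC and 3413 with siRNA8 and rose by 1.13 (SE 0.069) per the authors' deposited table. With siRNA5 NT5E rose by 0.91 (SE 0.069). AOX1, aldehyde oxidase, was rebuilt at 77.4 with NTC, 471 with siRNA8 and 88.9 with siRNA5, a rise of 2.60 (SE 0.16) with siRNA8 per the authors' deposited table. FAM198B, a Golgi protein, rose by 2.68 (SE 0.17) with siRNA8 and had a log2 change of 0.11 (SE 0.19) with siRNA5 per the authors' deposited tables. The DNA sensor IFI16 rose by 1.12 (SE 0.088), the pentraxin PTX3 by 1.09 (SE 0.11) and NEDD9, an adhesion scaffold, by 1.12 (SE 0.10) per the authors' deposited table. SLFN5 rose by 1.43 (SE 0.15) with siRNA8 and fell by 1.51 (SE 0.20) with siRNA5 per the authors' deposited tables. Its longest annotated 3′ UTR holds 6 heptamer sites, but only 1 of its 3 annotated transcripts holds any.

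Single genes with large falls outside the lists were also chosen after their values were seen, with no tally of their families. C1GALT1, which makes the core 1 structure of O-glycans, was rebuilt at 629 with NTC and 225 with siRNA8 and fell by 1.49 (SE 0.11) per the authors' deposited table. XYLT2, which starts proteoglycan chains, fell by 1.45 (SE 0.098), B4GALNT1, which makes complex gangliosides, by 1.76 (SE 0.14) and GCNT2, which branches glycans, by 1.36 (SE 0.14) per the authors' deposited table. C1GALT1 and XYLT2 hold a heptamer in the 3′ UTR, and B4GALNT1 and GCNT2 do not. DLD, the E3 subunit of pyruvate dehydrogenase, was rebuilt at 1919 with NTC, 777 with siRNA8 and 2419 with siRNA5 and holds no heptamer, and its fall with siRNA8 was 1.30 (SE 0.065) per the authors' deposited table. FTSJ3, an rRNA processing factor, fell by 1.52 (SE 0.056), TMEM30A, a subunit of lipid flippases, by 1.25 (SE 0.054), TUBB3, a beta-tubulin, by 1.27 (SE 0.060) and MEGF6 fell by 2.53 (SE 0.16) per the authors' deposited table, all 4 without a heptamer. The long non-coding RNA NEAT1, the scaffold of paraspeckles, fell by 1.33 (SE 0.11) with siRNA8 and by 0.84 (SE 0.11) with siRNA5 per the authors' deposited tables.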
